A study of Mus musculus with 12 samples.

Results

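The genes described here are 10 markers of endothelial cells, the cells that line blood vessels: Pecam1, Cdh5, Kdr, Tek, Tie1, Flt1, Emcn, Cldn5, Stab2 and Clec4g. They were found by symbol in a count table of 55450 genes, and all 10 were present as single rows. Pecam1 was chosen by its difference between knockout and wild-type brain, where it was among the 3 genes with the smallest unadjusted p, none of which passed adjustment. That contrast is therefore described without a test for any of the 10, and the other 9 genes were added as markers of the same cell type. The study sequenced total RNA from the brain and the liver of males that were 7 to 9 weeks old. Its 4 groups were wild-type brain, Vaultrc5-/- brain, wild-type liver and Vaultrc5-/- liver, with 3 libraries each, 12 in all; Vaultrc5 encodes a short non-coding vault RNA. The sample titles call the control libraries flx, whereas the genotype label reads wild type and the extraction protocol reads Vaultrc5+/+; the labels give no strain, no allele design and no agent. They do not say whether replicates came from separate animals, so p-values measure the spread between these libraries, which may be technical.

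Endothelial cells share a core of junction proteins and receptors wherever they occur. They respond to vascular endothelial growth factor (VEGF) and to angiopoietins, which control vessel growth and stability. Their form differs by organ: brain capillaries are sealed by tight junctions and make up the blood-brain barrier, whereas liver sinusoids are lined by open, fenestrated cells that take up waste from the blood through scavenger receptors.

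Brain libraries held 14844971 to 18567381 counts each, and liver libraries held 23247449 to 27155480. Levels are given as CPM, counts scaled to a common library size with TMM (a trimmed mean that aligns library composition) over the 12 libraries. A gene with 3 counts, taken as the floor for a fold change, lies at 0.123 to 0.148 CPM in brain and 0.150 to 0.169 CPM in liver. The tissue labels matched their markers: Snap25, a synaptic gene, averaged 1485 CPM in wild-type brain and 0.102 CPM in wild-type liver, and Alb, which encodes albumin, averaged 0.115 and 62860 CPM.

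The panel divided by tissue. In wild-type mice 7 of the 10 genes were lower in brain than in liver, 2 were higher and 1 did not pass the test. Calls are edgeR quasi-likelihood tests with a Benjamini-Hochberg adjusted p under 0.05 over all 18850 genes tested, of which 34.7% were called lower in brain, 43.9% higher and 78.6% in either direction. An unadjusted p under 0.05 was found for 9 of the 10 and for 79.8% of all genes. Every brain library lay below every liver library for 7 of the 10 genes (36.6% of all genes) and above for 2 (45.8%). The median log2 fold change of the 10 genes, brain over liver, was -1.34, beside 0.21 for all genes tested. In knockout mice, whose libraries do not enter the wild-type comparison, the split was again 7 lower, 2 higher and 1 not called, with a median of -1.30 beside 0.21; of all genes 35.2% were called lower, 43.5% higher and 78.7% in either direction. Unadjusted p-values under 0.05 again covered 9 of the 10, beside 80% of all genes, and the tissues did not overlap for 7 lower genes (36.6% of all) and 2 higher genes (45.7%). Bulk RNA cannot tell fewer cells of a type from less RNA per cell. The scale between tissues also depends on normalization: with library totals in place of TMM the median of all genes moved from 0.21 to 1.05 in the wild type and from 0.21 to 1.08 in the knockout. The share of called genes that were higher in brain moved with it, from 55.8% to 74.4% in wild-type and from 55.3% to 75.1% in knockout mice. The panel's split became 6 lower and 3 higher in wild-type mice and 5 lower and 3 higher in knockout mice.

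**Figure D1:**
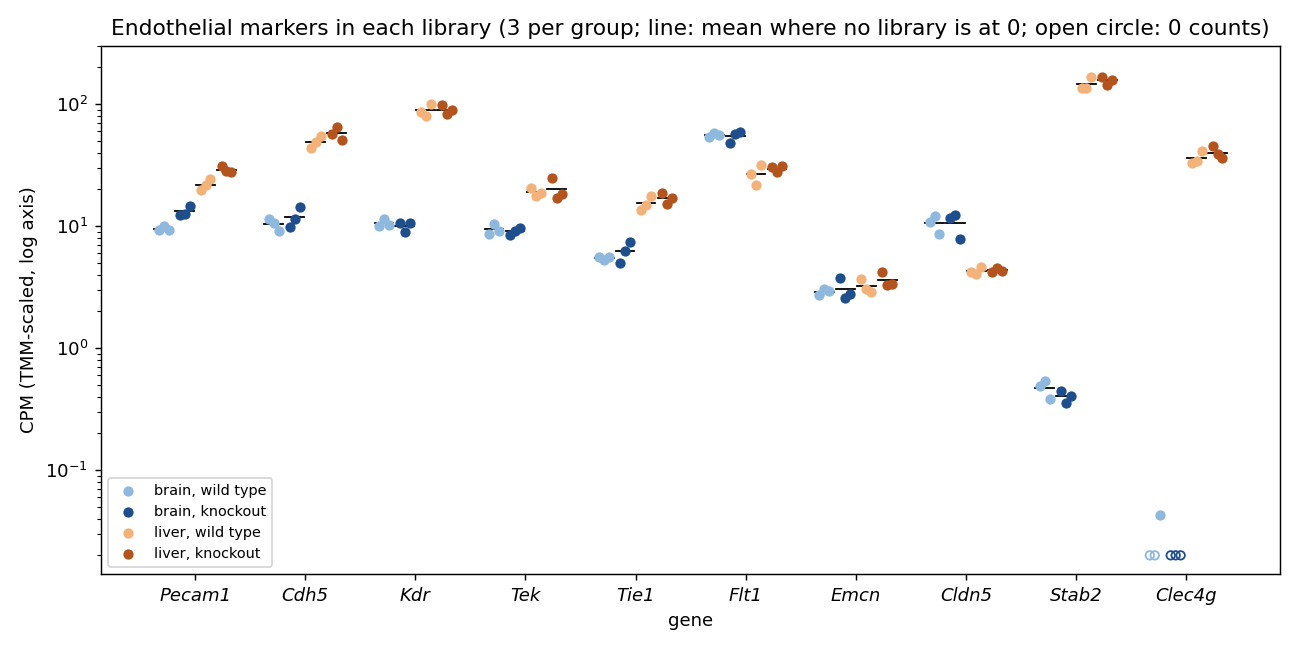
CPM of each gene in each of the 12 libraries on a log axis, with 4 colours for the groups and a line at the mean of each group without a 0. Stab2 and Clec4g are near the floor in brain and high in liver, Flt1 and Cldn5 are higher in brain, and brain and liver overlap for Emcn within each genotype.

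The 2 receptors typical of liver sinusoidal endothelium showed the widest gap. Stab2 (ENSMUSG00000035459.18, chromosome 10, 86841198 to 87008025, minus strand, GRCm38) encodes a receptor that clears hyaluronan from the blood. It was at 0.487, 0.533 and 0.384 CPM in wild-type brains 1, 2 and 3 and at 134, 135 and 168 CPM in wild-type livers. Knockout brains were at 0.445, 0.353 and 0.406 CPM and knockout livers at 168, 144 and 158 CPM. Every brain library thus held some Stab2 reads, 8 to 13 counts each, far below every liver library. The level was 306-fold lower in wild-type brain (log2 fold change -8.26 ± 0.19 SE, edgeR adjusted p = 6.62e-08) and 388-fold lower in knockout brain (-8.60 ± 0.16 SE, adjusted p = 1.14e-07). Clec4g (ENSMUSG00000074491.9, chromosome 8, 3707064 to 3720651, minus strand) encodes a C-type lectin of liver sinusoidal endothelium. Wild-type livers held 588, 690 and 782 counts of it, and knockout livers 857, 691 and 647. Brain held 1 count in wild-type replicate 3 and 0 in each of the other 5 libraries. The liver to brain ratio in the wild type was 2548, with an exact 95% interval of 457 to 100700 that covers counting error only. In the knockout the level in liver was at least 872-fold higher, against a floor of 3 counts over the 3 brains. Short exon stretches of both genes overlap an antisense gene on the other strand, Gm16268 for Stab2 (141 bp) and Gm16553 for Clec4g (146 bp), and the counting tool's use of strand is not given in the sources used here.

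On the brain side stood Flt1 and Cldn5. Flt1 (ENSMUSG00000029648.13, chromosome 5, 147561604 to 147726011, minus strand) encodes a VEGF receptor that binds its ligand tightly and also occurs as a soluble trap. It measured 53.5, 57.6 and 55.4 CPM in wild-type brains against 26.9, 21.8 and 32.0 CPM in wild-type livers. In the knockout it measured 47.9, 57.4 and 59.4 CPM against 30.3, 27.7 and 31.0 CPM. No brain library overlapped a liver library. The log2 fold change was 1.05 ± 0.15 (SE, edgeR adjusted p = 0.000302) in the wild type and 0.88 ± 0.12 (SE, adjusted p = 0.000246) in the knockout. Cldn5 (ENSMUSG00000041378.2, chromosome 16, 18776847 to 18778262, plus strand, a single exon) encodes the main claudin of blood-brain barrier tight junctions. Its levels were 10.9, 12.2 and 8.58 CPM in wild-type brain and 4.22, 4.04 and 4.61 CPM in wild-type liver. Knockout brains had 11.6, 12.3 and 7.81 CPM, and knockout livers 4.21, 4.51 and 4.32 CPM. Replicate 3 was the lowest brain library for Cldn5 in either genotype, yet it stayed above every liver. Its log2 fold change was 1.31 ± 0.18 (SE, edgeR adjusted p = 0.000317) in the wild type and 1.27 ± 0.21 (SE, adjusted p = 0.000739) in the knockout.

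The sequences just before the start sites of these 4 genes are shown because they are the pair with the widest gap in favour of liver and the pair that was higher in brain. They are RefSeq sequences on GRCm38.p6, from a promoter table in which 8 of the 10 genes were matched, and are printed 5′ to 3′ on the gene's strand up to the first transcribed base in RefSeq or GENCODE, whichever lies further upstream. Capitals mark matches on either strand to CAGGAA, an ETS-type core, to TATAAA, the TATA box, or to GGGCGG, the GC box. They cover chr10:87008026-87008192 (minus strand), chr8:3720652-3720901 (minus), chr5:147726012-147726261 (minus) and chr16:18776597-18776846 (plus).
Stab2: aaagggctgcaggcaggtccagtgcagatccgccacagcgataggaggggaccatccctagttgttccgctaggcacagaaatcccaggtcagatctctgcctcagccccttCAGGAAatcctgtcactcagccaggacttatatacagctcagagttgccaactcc
Clec4g: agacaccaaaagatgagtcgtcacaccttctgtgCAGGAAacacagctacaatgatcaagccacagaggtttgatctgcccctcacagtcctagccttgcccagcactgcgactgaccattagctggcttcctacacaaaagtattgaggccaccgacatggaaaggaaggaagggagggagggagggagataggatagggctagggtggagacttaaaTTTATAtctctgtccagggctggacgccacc
Flt1: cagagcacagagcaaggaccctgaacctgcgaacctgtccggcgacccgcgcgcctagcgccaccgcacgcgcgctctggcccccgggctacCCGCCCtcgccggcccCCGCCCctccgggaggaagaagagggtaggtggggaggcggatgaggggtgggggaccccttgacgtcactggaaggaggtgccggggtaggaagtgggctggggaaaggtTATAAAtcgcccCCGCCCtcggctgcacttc
Cldn5: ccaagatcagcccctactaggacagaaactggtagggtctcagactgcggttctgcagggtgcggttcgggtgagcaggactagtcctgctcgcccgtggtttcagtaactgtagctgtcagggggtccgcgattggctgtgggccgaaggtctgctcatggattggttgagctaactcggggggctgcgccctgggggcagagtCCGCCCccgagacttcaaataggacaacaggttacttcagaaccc
Over windows of 250 bases before the RefSeq start, CAGGAA or its reverse complement was found in 5 of the 8 genes (Stab2, Clec4g, Emcn, Tek and Tie1), and in 25.7% of 32851 windows of all genes. GGGCGG was found in Cldn5, Flt1 and Kdr, 3 of 8, against 32.7% of all windows. TATAAA was found in Flt1 on the gene's strand and in Clec4g as its reverse complement, 31 bases before the start in each, 2 of 8 against 12.4%. The GATA-type core AGATAA was in none of the 8 and in 9.99% of all windows. Flt1 had the highest G+C share of the 8 windows, 70.4%, and Emcn the lowest, 40.8%, around a median of 52.4% for all genes. These matches describe letters only.

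The other receptors of the VEGF and angiopoietin families were lower in brain. Kdr (ENSMUSG00000062960.10, chromosome 5, 75932827 to 75978458, minus strand) encodes the main signalling receptor for VEGF. It measured 9.95, 11.4 and 10.2 CPM in wild-type brains and 87.0, 79.9 and 99.5 CPM in wild-type livers, 8.39-fold lower in brain (log2 fold change -3.07 ± 0.13 SE, edgeR adjusted p = 3.64e-07). In the knockout it was 10.7, 8.94 and 10.5 CPM against 98.4, 82.9 and 89.0 CPM, 9.00-fold lower (-3.17 ± 0.13 SE, adjusted p = 4.82e-07). The ratio of Flt1 to Kdr within a library, which no scaling changes, shows how unequally the pair differed between tissues. Flt1 had 5.07 to 5.41 counts for each Kdr count in wild-type brain and 4.49 to 6.41 in knockout brain, but 0.273 to 0.321 in wild-type liver and 0.308 to 0.348 in knockout liver.

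Tek (ENSMUSG00000006386.15, chromosome 4, 94739289 to 94874976, plus strand), the angiopoietin receptor, measured 8.67, 10.4 and 9.09 CPM in wild-type brain and 20.7, 17.7 and 18.7 CPM in wild-type liver. Knockout brains were at 8.50 to 9.62 CPM and knockout livers at 17.0 to 24.7 CPM, again without overlap. Its log2 fold change was -1.01 ± 0.13 (SE, edgeR adjusted p = 0.000221), and -1.15 ± 0.17 (SE, adjusted p = 0.000475) in the knockout. Tie1 (ENSMUSG00000033191.14, chromosome 4, 118471191 to 118490061, minus strand) encodes a related receptor that modulates signalling by Tek. It was at 5.25 to 5.59 CPM in wild-type brain and 13.5 to 17.7 CPM in wild-type liver, and at 4.99 to 7.40 and 15.2 to 18.6 CPM in the knockout tissues, with log2 fold changes of -1.49 ± 0.15 in the wild type and -1.45 ± 0.18 in the knockout (SE, edgeR adjusted p = 4.89e-05 and 0.000193). The Tek to Tie1 count ratio was 1.57 to 1.98 in wild-type brain, 1.30 to 1.70 in knockout brain, 1.06 to 1.54 in wild-type liver and 1.08 to 1.33 in knockout liver, so this pair differed far less between tissues than Flt1 and Kdr. With library totals as the scale, Tek was no longer called in either genotype, at -0.17 (edgeR adjusted p = 0.246) and -0.27 (adjusted p = 0.178).

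Of the junction proteins, Cdh5 (ENSMUSG00000031871.9, chromosome 8, 104101625 to 104144511, plus strand) encodes VE-cadherin, the adherens junction cadherin of endothelium. Wild-type brains had 11.5, 10.7 and 9.14 CPM and wild-type livers 44.0, 48.8 and 55.3 CPM, a log2 fold change of -2.24 ± 0.14 (SE, edgeR adjusted p = 3.05e-06). Knockout brains had 9.83, 11.4 and 14.3 CPM and knockout livers 56.4, 65.5 and 51.2 CPM, a log2 fold change of -2.29 ± 0.17 (SE, adjusted p = 1.07e-05). Pecam1 (ENSMUSG00000020717.19, chromosome 11, 106654217 to 106750628, minus strand) encodes an adhesion protein at contacts between endothelial cells that platelets and leukocytes also carry. It ranged from 9.27 to 10.1 CPM in wild-type brain and from 19.6 to 24.4 CPM in wild-type liver, and from 12.4 to 14.5 and 27.6 to 31.2 CPM in the knockout tissues. Its log2 fold change between tissues was -1.19 ± 0.13 (SE, edgeR adjusted p = 7.28e-05) in the wild type and -1.14 ± 0.12 (SE, adjusted p = 6.59e-05) in the knockout. With library totals the knockout value was -0.27 and no longer called (edgeR adjusted p = 0.0724). Over the alternatives that kept all libraries the wild-type value ran from -1.20 to -0.35, and it stayed called in each. Emcn (ENSMUSG00000054690.17, chromosome 3, 137341067 to 137432185, plus strand) encodes endomucin, a sialomucin of capillary and venous endothelium. It was the 1 gene of the panel not called: 2.74 to 3.03 CPM in wild-type brain overlapped 2.88 to 3.71 CPM in wild-type liver, 2.56 to 3.75 CPM overlapped 3.27 to 4.21 CPM in the knockout, and the log2 fold changes were -0.14 (95% interval -0.63 to 0.36) between wild-type and -0.26 (-0.82 to 0.30) between knockout tissues. With library totals Emcn was called higher in brain, at 0.70 in the wild type (edgeR adjusted p = 0.0155) and 0.62 in the knockout (adjusted p = 0.0476), so its direction depends on the scale.

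**Figure D2:**
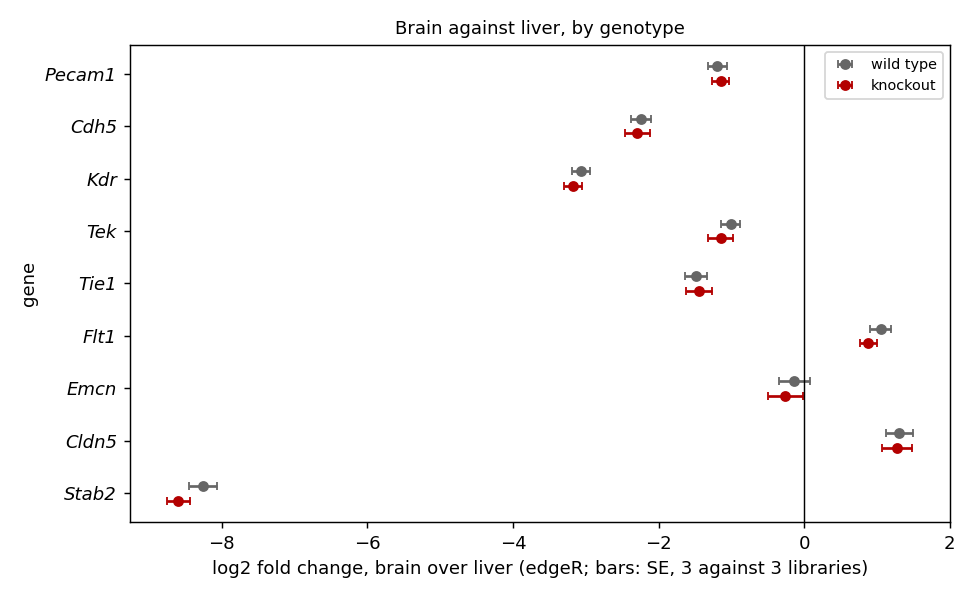
Log2 fold change of brain over liver for 9 genes in wild-type (grey) and knockout (red) mice, with SE bars; Clec4g is left out because its brain libraries were at 0 or 1 count. The values of the genotypes lie close together for each gene, from below -8 for Stab2 to above 1 for Cldn5.

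Levels of different genes were compared per kilobase of exon. In wild-type brain the order by mean CPM per kilobase was Cldn5 (7.46 ± 1.30, SD, n = 3), Flt1 (4.11 ± 0.15), Cdh5 (2.48 ± 0.28), Tek (1.99 ± 0.19), Pecam1 (1.53 ± 0.07), Kdr (1.17 ± 0.08), Tie1 (1.11 ± 0.04), Emcn (0.538 ± 0.028), Stab2 (0.0534 ± 0.0087) and Clec4g (0.00578 ± 0.01001). Cdh5 overlapped Tek there, and Kdr overlapped Tie1; all other neighbours were separate. Wild-type liver had another order, with Cldn5 and Flt1 near its end. Stab2 led (16.6 ± 2.2), followed by Clec4g (14.7 ± 1.7), Cdh5 (11.7 ± 1.3) and Kdr (9.83 ± 1.10), and then Tek (4.04 ± 0.32), Pecam1 (3.52 ± 0.39), Tie1 (3.13 ± 0.43), Cldn5 (3.03 ± 0.21), Flt1 (1.99 ± 0.38) and Emcn (0.594 ± 0.082). Stab2 overlapped Clec4g and Cdh5 overlapped Kdr, and the libraries of Tek, Pecam1, Tie1 and Cldn5 formed an overlapping run. In the knockout the only changes of place were Pecam1 above Tek in either tissue and Tie1 above Kdr in brain, and in each of these pairs the libraries overlapped in the knockout. The exon length used includes every annotated exon of a gene, so genes with rarely used long exons come out too low.

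In brain, knockout against wild type, the values that picked Pecam1 are given as a description. Wild-type brains 1, 2 and 3 had 9.29, 10.1 and 9.27 CPM of Pecam1, from 210, 246 and 217 counts. Knockout brains had 12.4, 12.6 and 14.5 CPM, from 252, 286 and 321 counts. All knockout brains lay above all wild-type brains, and the log2 fold change was 0.46 ± 0.12 (SE). Of the 9 members that passed the filter on low counts this was the only one whose genotypes did not overlap in that direction; 1.93% of the 18075 genes tested were separated that way and 2.31% in the other direction, where no member was, and nothing is read from the count because this contrast picked Pecam1. Knockout brain 3, the highest in Pecam1, was also the highest of the 6 brains in some genes of the vessel wall. Sox17 was at 3.75 CPM against 1.93 to 2.31, Myh11 at 8.08 against 3.75 to 6.12 and Acta2 at 7.27 against 3.40 to 5.73. Col3a1, a fibroblast gene, was at 11.2 CPM against 3.13 to 5.31. Of other arterial and mural genes, Notch3, Dll4 and Hey2 were not highest there. Notch3 was at 15.5 CPM there and 18.6 in wild-type brain 3, and Dll4 at 1.67 there and 2.25 in wild-type brain 2. Hey2 was at 2.66 CPM there and 3.89 in wild-type brain 1. Without knockout brain 3 the log2 fold change of Pecam1 was 0.38. Without knockout replicate 1 the count became 2, with Tie1 as the second gene at a log2 fold change of 0.33. Clec4g was too low to be fitted.

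The other fitted markers of the panel had smaller differences than Pecam1 in brain. Kdr, Tek, Flt1, Cldn5 and Stab2 had log2 fold changes of -0.07 ± 0.13, -0.05 ± 0.13, -0.02 ± 0.11, -0.00 ± 0.21 and -0.23 ± 0.34 (SE), and Emcn one of 0.06 ± 0.21. Those of Cdh5 and Tie1 were 0.18 ± 0.17 and 0.19 ± 0.18. In the fits that left out 1 library each, Kdr, Tek, Flt1, Emcn and Cldn5 took either sign. The summed level of the 10 genes was 111 to 121 CPM in wild-type and 110 to 127 CPM in knockout brain. Relative to the summed counts of the 8 markers well detected in both tissues (all but Stab2 and Clec4g), Pecam1 took 8.29%, 8.36% and 8.40% in wild-type brains and 11.4%, 10.5% and 11.5% in knockout brains, a share within each library that no scaling changes.

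Markers of blood and immune cells, which include the platelets and leukocytes that also carry Pecam1, were read in the same brains. Platelet and red cell markers summed to 7.98 to 10.6 CPM in the wild type and 6.95 to 13.6 CPM in the knockout, and microglia, Kupffer cell and leukocyte markers to 82.4 to 132 CPM and 90.7 to 142 CPM. Their genotype ranges overlapped, and 0 of the 4 and 0 of the 8 genes tested were called by edgeR, with 0 in each list under an unadjusted p of 0.05 (0.675% of all genes) and 0 called by DESeq2 over all genes. The 4 platelet and red cell genes tested were Itga2b, an integrin subunit of platelets, and the red cell genes Hba-a1, Hbb-bs and Alas2. The platelet genes Pf4, Ppbp, Gp9 and Gp1ba did not pass the filter on low counts, so that list was read mostly from red cells. Itga2b was the 1 of the 4 with all knockout brains above all wild-type brains, beside 1.93% of all genes. It was at 0.993 to 1.04 CPM against 0.752 to 0.939 CPM (21 to 23 and 17 to 22 counts), a log2 fold change of 0.22 ± 0.26 (SE). Clec4f and Vsig4, Kupffer cell genes, were at 0 in all 6 brains. The part of these cells in the Pecam1 difference was not tested.

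The liver libraries were not used to choose Pecam1. Wild-type livers 1, 2 and 3 had 19.6, 21.7 and 24.4 CPM of Pecam1 (349, 435 and 466 counts) and knockout livers 31.2, 28.3 and 27.6 CPM (594, 502 and 492 counts). Again the lowest knockout library lay above the highest wild-type library. Knockout liver 1, the highest in Pecam1, stood apart in vessel-wall and bile duct genes: Acta2 was at 21.9 CPM there against 2.04 to 6.92 in the other 5 livers, Myh11 at 25.4 against 3.14 to 7.71, Krt19 at 7.36 against 1.23 to 1.94 and Sox17 at 4.42 against 1.79 to 2.41. Without this library the log2 fold change of Pecam1 was 0.38 (edgeR adjusted p = 0.998), and the part of these cells in it was not tested. The means were 21.9 ± 2.4 and 29.0 ± 1.9 CPM (SD, n = 3), and the log2 fold change was 0.41 ± 0.10 (SE, 95% interval 0.17 to 0.65). The edgeR test gave an unadjusted p = 0.00421 in the fit across 15329 genes and a Benjamini-Hochberg adjusted p = 0.992, so Pecam1 was not called; it ranked 33 by unadjusted p. With the replicate block the unadjusted p was 0.00501 and the rank 103, and over all edgeR and DESeq2 alternatives the p ran from 0.00194 to 0.0191 and the rank from 24 to 165. The adjusted p was 0.711 with the replicate number as a block and lay between 0.676 and 1.00 over the alternatives, and DESeq2 gave 0.917. The log2 fold change stayed between 0.34 and 0.50 whichever library was left out. Pecam1 took 8.94%, 10.2% and 9.58% of the counts of the 8 markers in wild-type livers and 11.7%, 11.6% and 11.4% in knockout livers.

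**Figure D3:**
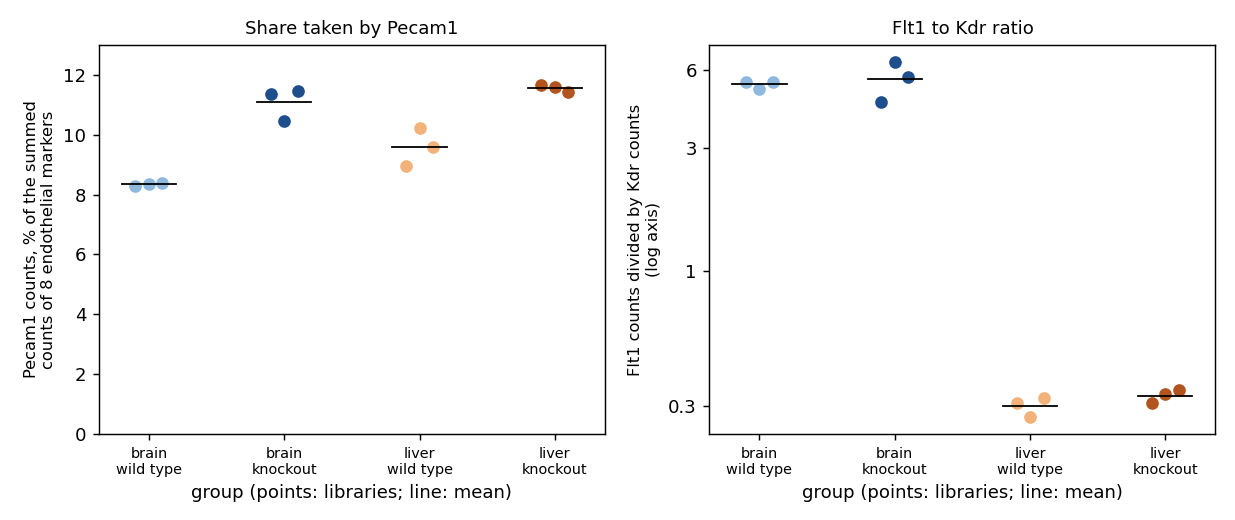
Left, Pecam1 counts as a percent of the summed counts of 8 endothelial markers in each library; right, Flt1 counts divided by Kdr counts on a log axis; points are libraries and lines group means. The Pecam1 share is 8.94% to 10.2% in wild-type and 11.4% to 11.7% in knockout liver; in brain, whose genotype difference chose Pecam1, it is 8.29% to 8.40% and 10.5% to 11.5%, and the Flt1 to Kdr ratio is over 4 in all brains and under 1 in all livers.

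None of the 10 genes was called in liver by edgeR, with or without the replicate block, or by DESeq2. Over all 15329 genes the called share was 0%, and an unadjusted p under 0.05 was found for 3.5%, against 1 of the 10, Pecam1; DESeq2 called 10 genes and the blocked edgeR fit 2. Groups that did not overlap, higher in the knockout, were found for 1 of 10 members and for 4.16% of all genes, and lower in the knockout for 0 members and 5.45% of all genes. All 10 log2 fold changes were above 0, from 0.03 for Cldn5 and Kdr to 0.41 for Pecam1, with a median of 0.15; of all genes 51.3% were above 0 and the median was 0.01. With library totals as the scale Kdr and Cldn5 turned to -0.01 and -0.02, and Kdr, Cldn5 and Tek also changed sign when single libraries were left out. The next largest was Cdh5, which averaged 49.4 ± 5.7 CPM in wild-type livers and 57.7 ± 7.2 CPM in knockout livers (SD, n = 3). Its log2 fold change of 0.23 had a 95% interval of -0.05 to 0.52, and its libraries overlapped. For Kdr the interval ran from -0.21 to 0.27, for Flt1 from -0.18 to 0.48, for Stab2 from -0.15 to 0.38 and for Clec4g from -0.10 to 0.41. The ratio of Pecam1 to Kdr counts was 0.226 to 0.271 in wild-type and 0.310 to 0.341 in knockout liver, whereas that of Pecam1 to Cdh5 was 0.442 to 0.446 and 0.432 to 0.554, where the genotypes overlapped.

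**Figure D4:**
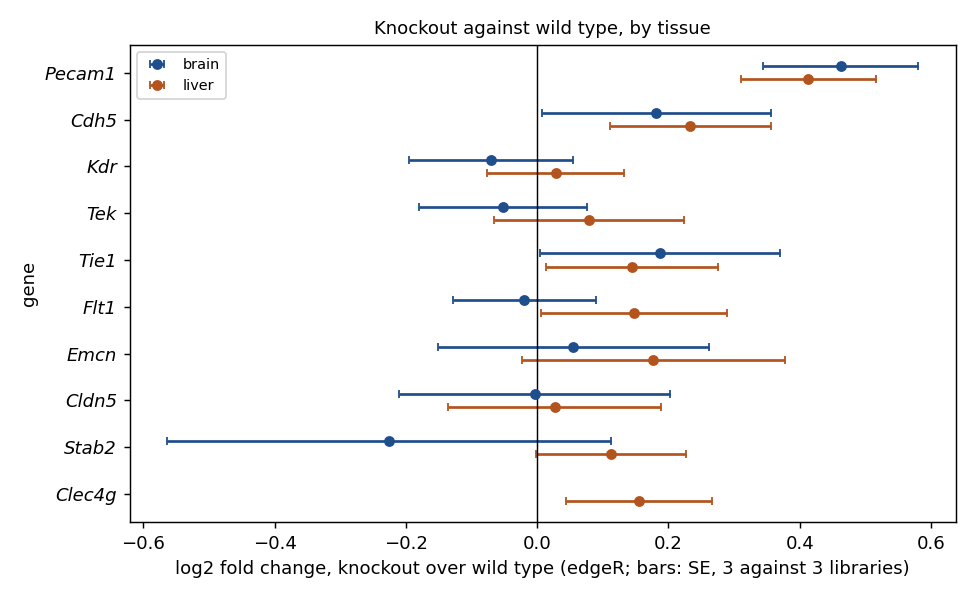
Log2 fold change of knockout over wild type in brain (blue, a description) and liver (orange) with SE bars for each gene; Clec4g has no brain point. Pecam1 lies furthest to the right in both tissues, at 0.46 and 0.41, and the bars of Kdr, Tek, Emcn, Cldn5 and Stab2 include 0 in both.

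Markers of blood and immune cells were read in the same livers. Of the 14 microglia, Kupffer cell and leukocyte genes tested in liver all 14 had positive log2 fold changes, median 0.52, but 0 were called by edgeR and 2 had an unadjusted p under 0.05, or 5 with the replicate block; DESeq2 called 0. P2ry12, a purinergic receptor of microglia and platelets, had all knockout livers above all wild-type livers and the smallest unadjusted p (0.0190, edgeR adjusted p = 0.992), with a mean of 1.21 CPM over wild-type livers against 2.59 CPM over knockout livers. The list summed to 244, 327 and 277 CPM in wild-type livers and to 337, 596 and 261 CPM in knockout livers, with knockout replicate 2 the highest and knockout replicate 3 within the wild-type range. No gene of that list was at 0 in all livers. Platelet and red cell genes summed to 157, 123 and 114 CPM in wild-type livers and 169, 165 and 143 CPM in knockout livers, with 7 of 8 tested genes positive, median 0.60, 0 called by edgeR or DESeq2 and 2 with an unadjusted p under 0.05, or 4 with the replicate block. For 3 of the 8, Hba-a2, Hbb-bs and Ppbp, all knockout livers lay above all wild-type livers, as for Pecam1 and 4.16% of all genes. Hba-a2, an alpha globin gene whose near-identical copy Hba-a1 can share its reads, had the smallest p of the list (0.00206, edgeR adjusted p = 0.992), at 0.314 and 1.78 CPM. The part of these cells in the Pecam1 difference was not tested.

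Further endothelial genes, from lists that do not contain the panel, were set beside it. For this and the lists below, the shares of all genes called were 43.9% higher and 34.7% lower in wild-type brain. In knockout brain they were 43.5% and 35.2%. Of 22 shared endothelial genes all were tested between wild-type tissues, and 16 were lower in brain, 2 were higher and 4 were not called, with a median of -1.05. In the knockout 15 were lower and 2 higher. Eng, a TGF-beta co-receptor, had a log2 fold change of -2.91 ± 0.15 (SE, edgeR adjusted p = 1.03e-06), Myct1 one of -2.91 ± 0.29 (SE) and Clec14a, a lectin of the endothelial surface, one of -2.60 ± 0.14 (SE). Cd34, a sialomucin that marks brain capillaries, was higher in brain by 3.75 ± 0.36 (SE, edgeR adjusted p = 3.36e-05), and Podxl by 0.96 ± 0.16 (SE). With library totals the wild-type split was 8 lower and 6 higher, so the call of some of these genes depends on the scale. In liver between genotypes 19 of the 22 had positive log2 fold changes, median 0.10, and 5 (Erg, Fli1, Icam2, Cd93 and Clec14a) had all knockout livers above all wild-type livers, beside 4.16% of all genes. Calls by edgeR or DESeq2 numbered 0, and 2 genes had an unadjusted p under 0.05, with or without the replicate block. The smallest belonged to Cd93, a receptor on endothelium and myeloid cells, at 0.31 ± 0.09 (SE, edgeR adjusted p = 0.992). In brain 14 of 22 were positive, median 0.03, with 0 called and 0 under an unadjusted p of 0.05 in the edgeR fit. Erg and Ramp2 had all knockout brains below all wild-type brains, at log2 fold changes of -0.39 ± 0.19 and -0.27 ± 0.17 (SE), and 0 of the 22 had them above. Of the barrier genes 4 of 16 were positive in brain, median -0.03, and of the sinusoidal genes 8 of 13, median 0.01, with 0 called and 0 under an unadjusted p of 0.05 in either list by edgeR. Foxf2 was the 1 barrier gene with all knockout brains above all wild-type brains, at a log2 fold change of 0.38 ± 0.18 (SE). It was at 2.42 to 2.75 CPM against 1.92 to 2.04 CPM, and no gene of either list had all knockout brains below.

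Endothelial lists specific to an organ were read in the same way. Of 16 blood-brain barrier genes 9 were higher in brain and 3 lower in either genotype, with medians of 2.23 and 2.18, and with library totals 11 and 10 were higher. The direction of the list's summed level depends on the scale: with TMM it was 372 to 420 CPM in wild-type liver against 323 to 365 CPM in brain, and with library totals 280 to 315 CPM in liver against 441 to 502 CPM in brain. In knockout mice it was 409 to 497 against 313 to 355 CPM with TMM, and 290 to 364 against 426 to 471 CPM with library totals. Slco1c1, a thyroid hormone transporter of the barrier, stood at 28.0 CPM in wild-type brain and 0.0664 CPM in wild-type liver. Foxf2, a transcription factor, averaged 1.99 CPM in wild-type brain and had 0 counts in wild-type liver. The 3 called lower in brain were Abcg2, Ocln and Foxq1, at log2 fold changes of -3.22 ± 0.15, -2.24 ± 0.30 and -4.09 ± 0.62 (SE); hepatocytes are known to make Abcg2 and Ocln as well, an efflux pump and a tight junction protein. Of 16 liver sinusoidal genes 13 were lower in wild-type brain and 14 in knockout brain, none was called higher, and the medians were -3.31 and -3.49; with library totals 2 were higher and 10 lower in either genotype. Oit3 and Dnase1l3, a secreted nuclease, averaged 34.4 and 74.8 CPM in wild-type liver and 0.0142 and 0.0721 CPM in brain, under the floor, and Gata4, a transcription factor of sinusoidal identity, averaged 25.4 CPM in wild-type liver with 0 counts in wild-type brain; knockout brain 3 held 24 counts of it (1.08 CPM) and the other knockout brains 0. Between genotypes in liver, 0 of 12 barrier genes and 0 of 16 sinusoidal genes were called by edgeR or DESeq2, and 1 and 2 had an unadjusted p under 0.05, or 3 and 3 with the replicate block. The smallest in the edgeR fits belonged to Ocln (log2 fold change -0.34 ± 0.14 SE, edgeR adjusted p = 0.992) and to F8, a coagulation factor (0.23 ± 0.08 SE, edgeR adjusted p = 0.992). With the replicate block 1 barrier gene, Foxq1, was called in liver (log2 fold change 1.17, edgeR adjusted p = 0.0132).

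**Figure D5:**
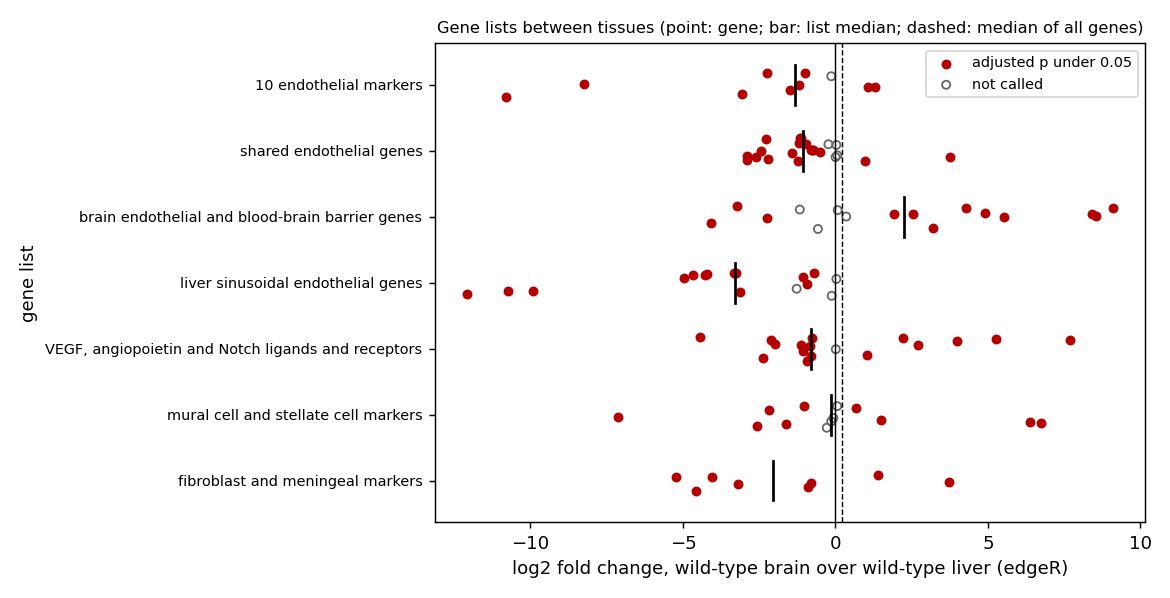
Log2 fold change of wild-type brain over wild-type liver for each gene of the panel and of 6 further lists; filled points passed the adjusted p of 0.05, bars are list medians and the dashed line is the median of all genes, 0.21. Points of genes with 0 or 1 count in one tissue, Clec4g among them, depend on the fit's prior count and show direction only.

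The ligands and receptors around the panel were divided. Of 17 VEGF, angiopoietin and Notch genes 10 were lower and 6 higher in wild-type brain, and the same numbers held in the knockout. With library totals the wild-type numbers became 4 lower and 7 higher, and the list's median turned from -0.81 to 0.02. Lower in brain were Flt4, the receptor of lymphatic and sinusoidal endothelium (log2 fold change -4.45 ± 0.22 SE), Nrp1, a VEGF co-receptor (-2.39 ± 0.17 SE), and Vegfa, the ligand of Kdr and Flt1 (-2.10 ± 0.11 SE). The ligand Vegfa was at 40.2 CPM in wild-type brain and 173 CPM in wild-type liver. Higher in brain were the Notch ligand Jag2 (7.68 ± 0.35 SE), the Notch target Hey1 (5.25 ± 0.20 SE) and Pgf, a ligand of Flt1, at 0.643 CPM in wild-type brain and 0.0375 CPM in wild-type liver, where it had 2 counts in all. Between genotypes in liver 0 of 15 were called by edgeR or DESeq2 and 1 had an unadjusted p under 0.05, or 0 with the replicate block. It was Angpt2, a ligand of Tek, with means of 1.26 and 0.711 CPM in wild-type and knockout livers (log2 fold change -0.81 ± 0.31 SE, edgeR adjusted p = 0.992). In the brain genotype fit by edgeR the list had 0 calls among 17 genes, and none with an unadjusted p below 0.05.

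Markers of the cells that wrap vessels were divided between tissues. Of 13 mural and stellate cell markers 4 were higher in wild-type brain, 5 lower and 4 not called, beside 43.9% of all genes higher and 34.7% lower. With library totals 5 of these markers were higher and 4 lower. Cspg4, a proteoglycan of pericytes and oligodendrocyte precursors, was at 17.9 CPM in brain and 0.217 CPM in liver, whereas Lrat, which stores retinol in stellate cells, was at 0.269 and 39.1 CPM. Fibroblast and meningeal markers were lower in brain for 6 of 8 genes and higher for 2; with library totals the counts were 4 and 2. Slc6a13, a transporter of meninges that hepatocytes also make, was at 4.68 CPM in brain and 178 CPM in liver. In the liver genotype comparison 0 of 11 and 0 of 7 of these genes were called by edgeR or DESeq2, with 0 and 2 under an unadjusted p of 0.05, or 1 and 2 with the replicate block. The smallest p-values belonged to Tagln, a smooth muscle gene (log2 fold change 0.44 ± 0.23 SE, edgeR adjusted p = 0.992; 15.5 CPM in knockout liver 1 against 8.28 and 9.31 in the other knockout livers and 7.32 to 8.91 in wild-type livers), and Col3a1, a fibrillar collagen (-0.36 ± 0.14 SE, edgeR adjusted p = 0.992). Of the neuron and glia and the hepatocyte and cholangiocyte lists 0 of 6 and 0 of 8 genes were called in liver by edgeR or DESeq2, and 0 in each had an unadjusted p under 0.05. Rbfox3 and Krt19 came nearest, at log2 fold changes of 0.56 ± 0.39 and 1.09 ± 0.67 (SE); the Krt19 value rests on knockout liver 1, as the other knockout livers were at 1.80 and 1.23 CPM and wild-type livers at 1.41 to 1.94 CPM.

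The genes most like Pecam1 were sought by the root mean square difference between log2(CPM + 1) profiles, each centred on its own mean, among 12413 other genes at 5 CPM or more on average. Over the 12 libraries the nearest 5 outside the panel were Tmem259 (0.182), Ears2 (0.186), Wdr55 (0.187), Pa2g4 (0.188) and the pseudogene Gm6472 (0.188), and none of these was on an endothelial list. Among the members Tie1 ranked 11 at 0.197 and Tek 200 at 0.246, while Cdh5 ranked 3852. Over the 6 brain libraries the nearest 5 of 11623 were Rpl36a (0.0536), Gm45191 (0.0820), Muc3a (0.0866), Gm26660 (0.0871) and Zbtb9 (0.0963); Tie1 ranked 352 and Cdh5 416, and Kdr 4501. These ranks include the brain values that picked Pecam1 and are given as a description.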

How the data were processed

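Expected counts per gene and library, not scaled and not pooled, were deposited by the authors. Per the submitters' processing notes cutadapt, STAR and the mm10 build were used; versions, counting tool and strand setting are not given in the sources used here. Tissue RNA was extracted with TRIzol, per the labels' protocols, then treated with DNase, depleted of ribosomal RNA and made into stranded libraries sequenced from one end. Between 5.06% and 5.71% of values per library were not whole; those of the 10 genes were whole in all 12 libraries. Counts were rounded.

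Groups came from titles. Each comparison was fitted on its own 6 libraries with edgeR 4.0.16 (R 4.3.3): TMM, filterByExpr (minimum count 10, total 15), robust quasi-likelihood F-test, Benjamini-Hochberg adjustment over all genes. SE is the absolute log2 fold change over the square root of F. When tested on simulated data with known log2 changes of size 2, the fits recovered most changed genes. The share of false calls was above the nominal threshold in each comparison, most so for the liver genotypes. Smaller changes, such as those of the panel between genotypes, were not simulated. Alternatives were DESeq2 1.42.0 size factors and Wald test, library totals, no filter, a mean of 1 CPM, an adjusted p threshold of 0.1, all 12 libraries, the replicate block, and each library left out. Replicate pairs differed by 27.2 to 228 times the sampling noise (chi-square per degree of freedom). Titles number the replicates; same-numbered wild-type and knockout livers deviated together (correlations 0.32, 0.34 and 0.38 across 13938 genes), so the numbers were taken to pair livers. All 55450 identifiers matched GENCODE M21 (GRCm38), the source of coordinates.

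The members, lists and naming rule were chosen with earlier results of these data known. Named were all 10 members, of each list up to 3 called genes per direction with the largest change between wild-type tissues (some are left to the counts, and 1 is not reported here), the smallest p per list in liver, and the 5 profiles nearest to Pecam1.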

Additional observations from a re-analysis of the deposited data

How the results depend on the processing

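The count of members called was 9 in each tissue comparison and 0 in the liver genotype comparison, and it stayed within 1.5 times of this under each alternative run. Library totals moved single genes: Emcn turned to 0.70 (wild type) and 0.62 (knockout) between tissues, Kdr to -0.0132 and Cldn5 to -0.0172 between liver genotypes, and calls were lost for Tek (-0.17 and -0.27) and for Pecam1 in the knockout (-0.27). With 1 library left out, the liver genotype values ran from -0.0490 to 0.117 for Kdr, from -0.0791 to 0.176 for Tek and from -0.0221 to 0.0811 for Cldn5. The count of members with all knockout brains above all wild-type brains was 1, and 1 to 2 with a library left out (2 without knockout replicate 1). With the replicate block 9, 9 and 0 members were called in the wild-type tissue, knockout tissue and liver comparisons, and no member's call changed; the Pecam1 log2 fold change was 0.46 in brain and 0.42 in liver. Between brain genotypes the correlations were 0.67, 0.64 and -0.02. Brain replicates 1 and 2 thus deviated together across genotypes, more so than the livers (0.32, 0.34 and 0.38), whereas replicate 3 did not. What the brains of replicates 1 and 2 share is not in the labels. Between tissues the correlations were no more than 0.042. Each library correlated best with its own number for 2 of 3 between brain genotypes and, between tissues, for 3 of 3 (wild type) and 1 of 3 (knockout). Clec4g in brain, at 0 or 1 count, was limited by depth.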
